A study of Homo sapiens with 6 samples.

Results

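The genes described here encode 10 secreted glycoproteins of the extracellular matrix: SPARC, THBS1, THBS2, TNC, POSTN, FN1, FBN1, FBN2, FSTL1 and EFEMP1. They were taken by gene symbol from a table of 58735 genes, and each symbol matched 1 row. The cells were HT1080, an established human fibrosarcoma line, in 3 libraries of GPR56 KO cells and 3 libraries of WT cells. GPR56, whose gene is ADGRG1, is an adhesion G protein-coupled receptor, and the KO cells were made with CRISPR-Cas9. The sample descriptions of both genotypes carry the name DMSO, a solvent, with no dose or time. Neither the number of KO clones nor separate culture of the 3 samples per genotype is stated in the labels, so each p-value rests on a spread between samples that may be technical. The design asks how mRNA levels in KO cells differ from those in WT cells.

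Matrix glycoproteins of this kind fall into a structural and a matricellular class. Fibronectin and the fibrillins are assembled outside the cell into fibrils and microfibrils, which carry mechanical load and hold latent TGF-beta and other growth factors. Matricellular proteins such as SPARC, the thrombospondins, tenascin-C and periostin do not build the scaffold. They bind to it, to integrins and to proteases, and are known for modulating adhesion and matrix turnover. Fibroblasts and tumour cells of mesenchymal origin are typical producers of both classes.

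Values are FPKM, reads scaled by gene length and library size. The length is that of all annotated exons of a gene joined, which can exceed that of its transcripts. Orders, shares and ratios between different genes therefore depend on the annotation, while comparisons of 1 gene between genotypes do not. The reads recovered from these values numbered 16955111 to 17276269 per KO library and 16410352 to 16461752 per WT library. ADGRG1 was at 2.68, 2.54 and 2.58 FPKM in the KO libraries, against 6.61, 6.07 and 6.87 FPKM in the WT libraries, so its mRNA was reduced and still present. Of the mesenchymal markers, VIM and CD44 were abundant in both genotypes, VIM at 286.9 ± 33.1 FPKM in KO and 310.8 ± 25.8 FPKM in WT (SD, n = 3 each). PDGFRB and S100A4, also on the mesenchymal list, rose to 3.60 ± 0.18 and 10.2 ± 1.9 FPKM in KO, against 0.611 ± 0.110 and 3.42 ± 1.19 FPKM in WT. PDGFRB passed the filter for testing, a mean of at least 1 FPKM, only through the KO libraries. The summed level of the 7 listed markers was 359.9 to 434.9 FPKM in KO and 373.8 to 431.9 FPKM in WT. The fibroblast surface markers THY1 and FAP were near 0, with 15 and 0 reads over the KO libraries and 2 and 4 reads over the WT libraries. NT5E, also on the mesenchymal list, was near 0 as well, with 42 reads over the KO and 20 over the WT libraries. The epithelial markers CDH1 and EPCAM had 0 and 1 reads over the KO libraries and the same numbers over the WT libraries, and KRT19 and CLDN7 had at most 4 reads over a genotype. KRT7 was at 1.09 ± 0.45 FPKM in KO and 1.14 ± 0.25 FPKM in WT and was not called, and CLDN4, under the level filter, was at 0.906 ± 0.026 FPKM in KO and 0.330 ± 0.051 FPKM in WT without overlap. The 6 epithelial markers summed to 1.64 to 2.49 FPKM in KO and 1.26 to 1.79 FPKM in WT libraries, and their part in the results was not tested. PTPRC, the pan-leukocyte marker, had 0 reads in all 6 libraries. The summed level of 4 endothelial markers was low and higher in KO, at 1.39 to 1.59 FPKM in KO and 0.416 to 0.427 FPKM in WT libraries. Most of it was PECAM1, at 1.23 ± 0.18 FPKM in KO and 0.326 ± 0.034 FPKM in WT. CDH5 had 51 reads over the KO and 0 over the WT libraries, and VWF had 24 and 6. KDR went the other way, with 11 and 28 reads. The part of these markers in the results was not tested. Deviations of library values from the gene means followed GC content differently in the genotypes, with Spearman correlations across genes of 0.23 to 0.46 in KO libraries and −0.62 to −0.01 in WT libraries.

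Of the 10 genes, 4 were higher and 5 were lower in KO cells, and 1, POSTN, had no reads. FN1, SPARC, THBS1 and THBS2 rose, while FBN1, FBN2, EFEMP1, TNC and FSTL1 fell. The test was limma on log2(FPKM + 1) over the 12000 genes with a mean of at least 1 FPKM, with Benjamini-Hochberg adjusted p under 0.05 taken as a call. Over all genes tested 43.4% were called, 21.0% as higher and 22.4% as lower, so differences between these cell populations were common. After correction for GC content and length, 43.6% of genes were called, 21.4% as higher and 22.2% as lower, and the members numbered 4 higher and 4 lower. FPKM ranges of KO and WT libraries did not overlap for any of the 9 detected genes, and did not overlap for 54.7% of all genes tested. The median absolute log2 fold change of the 9 genes was 0.55, against 0.24 over all genes tested. The 9 genes lay between the 27.0 and the 99.0 percentile of mean level among genes tested, and higher levels leave less counting error. In bulk RNA, fewer cells that make a transcript and less of it per cell cannot be told apart.

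**Figure D1:**
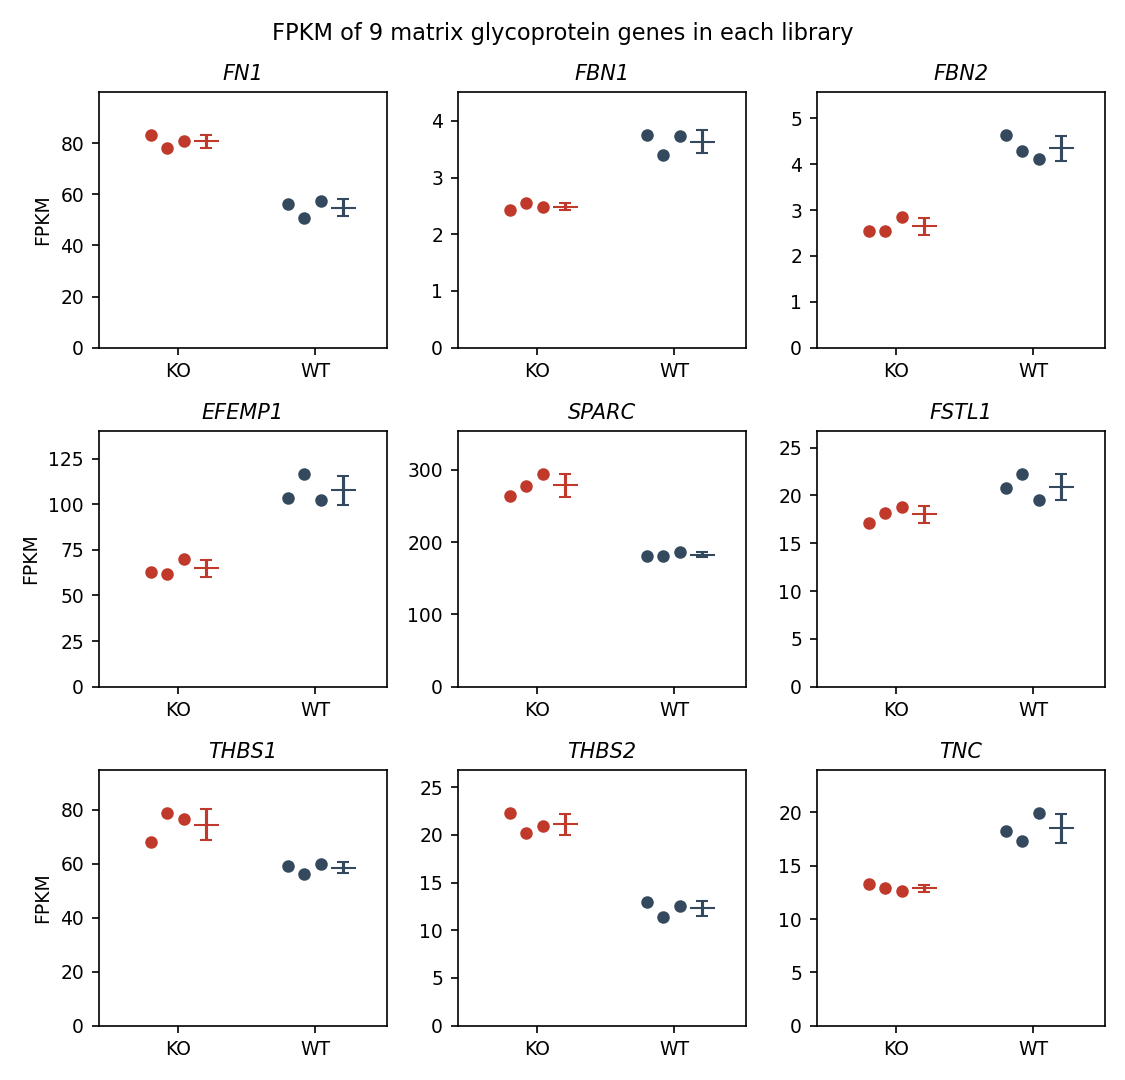
FPKM (vertical axes, starting at 0) of the 9 detected genes in the 3 KO and the 3 WT libraries, with 1 point per library and the mean ± SD of each genotype beside the points. In every panel the KO points lie wholly above or wholly below the WT points, with FSTL1 the closest pair of groups.

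FN1 encodes fibronectin, a large dimeric adhesion protein that cells pull into fibrils through integrin alpha-5 beta-1. Its level was 83.3, 78.1 and 80.8 FPKM in the KO libraries, against 56.2, 50.8 and 57.4 FPKM in the WT libraries. The lowest KO library was well above the highest WT library. The KO mean was 80.8 ± 2.6 FPKM and the WT mean 54.8 ± 3.5 FPKM (SD, n = 3 each), and their ratio was 1.47. The log2 fold change was 0.55 (95% interval 0.39 to 0.71, limma adjusted p = 0.000841). FN1 spans chr2:215360440-215436172 on the minus strand (GRCh38), and its summed exons are the longest of the group at 17315 bases. No exon of FN1 overlapped another annotated gene.

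FBN1 and FBN2 encode fibrillin-1 and fibrillin-2, paralogous rods that form the microfibrils of elastic tissue. FBN1 is the gene mutated in Marfan syndrome, and FBN2 that of congenital contractural arachnodactyly. FBN1 was at 2.42, 2.55 and 2.48 FPKM in KO libraries, against 3.76, 3.40 and 3.74 FPKM in WT libraries. FBN2 was at 2.55, 2.53 and 2.84 FPKM in KO libraries, against 4.64, 4.28 and 4.11 FPKM in WT libraries. Both genes were thus low and fell in KO, with KO to WT ratios of 0.684 for FBN1 and 0.608 for FBN2. The log2 fold change was −0.41 for FBN1 (95% interval −0.57 to −0.25, limma adjusted p = 0.00307). It was −0.55 for FBN2 (95% interval −0.73 to −0.38, limma adjusted p = 0.00117). FBN1 lies on chromosome 15 and FBN2 on chromosome 5, and 575 to 1037 reads per library supported each value of FBN2.

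By FPKM, the balance between the fibrillins was nearly even in KO cells. The FBN2 to FBN1 ratio of FPKM was 1.05, 0.992 and 1.15 in the KO libraries, against 1.24, 1.26 and 1.10 in the WT libraries. The genotypes overlapped, and the log2 ratio differed by −0.17 (two-sided exact permutation p = 0.2, where 3 against 3 libraries cannot give less than 0.1).

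EFEMP1 encodes fibulin-3, a short glycoprotein with EGF-like repeats that is found in basement membranes and around elastic fibres. It was at 62.9, 61.7 and 70.2 FPKM in the KO libraries, against 103.7, 116.8 and 102.5 FPKM in the WT libraries. The groups were far apart, with a mean of 64.9 ± 4.6 FPKM in KO and 107.6 ± 7.9 FPKM in WT (SD, n = 3 each). This was the largest decrease among the 9 genes, with a KO to WT ratio of 0.603. Its log2 fold change was −0.72 (95% interval −0.91 to −0.53, limma adjusted p = 0.000588). EFEMP1 lies at chr2:55865967-55924139 on the minus strand.

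SPARC encodes osteonectin, a collagen-binding matricellular protein that counteracts cell spreading. It was the most abundant of the genes by FPKM in both genotypes. Its level was 263.1, 277.5 and 294.6 FPKM in KO libraries, against 180.5, 180.8 and 186.2 FPKM in WT libraries. The WT libraries lay close together, and all KO libraries were above them. The KO to WT ratio was 1.53, and the log2 fold change was 0.61 (95% interval 0.45 to 0.76, limma adjusted p = 0.000541). SPARC was in the 99.0 percentile of mean level among genes tested and had 14543 to 23633 reads per library.

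FSTL1 encodes a secreted protein that shares the follistatin-like and calcium-binding modules of SPARC and is known to bind BMP ligands. FSTL1 was at 17.1, 18.2 and 18.7 FPKM in KO libraries, against 20.8, 22.3 and 19.6 FPKM in WT libraries. The highest KO library and the lowest WT library were less than 1 FPKM apart. The KO to WT ratio was 0.862, with a log2 fold change of −0.20 (95% interval −0.36 to −0.04, limma adjusted p = 0.0491). This call was lost under 10 of 14 alternative settings. The value was −0.12 (limma adjusted p = 0.0615) after correction for GC content and length. Adjusted p was 0.144, 0.118 and 0.0691 without KO 1, 2 or 3, and 0.128 and 0.114 without WT 1 or 2, against 0.0265 without WT 3.

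THBS1 and THBS2 encode thrombospondin-1 and thrombospondin-2, the trimeric members of their family. Both inhibit angiogenesis through the receptors CD36 and CD47, and thrombospondin-1 is known to activate latent TGF-beta. THBS1 was at 68.0, 79.0 and 76.6 FPKM in KO libraries, against 59.3, 56.4 and 60.1 FPKM in WT libraries. THBS2 was at 22.3, 20.1 and 20.9 FPKM in KO libraries, against 13.0, 11.4 and 12.5 FPKM in WT libraries. Both rose without overlap, by a KO to WT ratio of 1.27 for THBS1 and 1.72 for THBS2. The increase of THBS2 was the largest among the 9 genes on the log2(FPKM + 1) scale, whereas after correction for GC content and length that of FN1 was, at 0.72 against 0.67 for THBS2. The log2 fold change was 0.34 for THBS1 (95% interval 0.17 to 0.51, limma adjusted p = 0.00886). It was 0.74 for THBS2 (95% interval 0.57 to 0.90, limma adjusted p = 0.000314). KO 1 had the lowest THBS1 and the highest THBS2 level among the KO libraries.

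THBS2 remained the minor thrombospondin of the pair in every library. Its level relative to THBS1 was 0.329, 0.255 and 0.273 in the KO libraries, against 0.219, 0.203 and 0.208 in the WT libraries. The ratios did not overlap, with a difference of 0.44 on the log2 scale (p = 0.1 in a two-sided exact permutation test, which is the lowest value that 3 libraries against 3 can give).

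TNC encodes tenascin-C, a hexameric protein of wound beds and tumour stroma that interferes with adhesion to fibronectin. It was at 13.3, 12.9 and 12.6 FPKM in KO libraries, against 18.2, 17.3 and 20.0 FPKM in WT libraries. The KO libraries differed little among themselves and all lay under the WT libraries. The KO to WT ratio was 0.698, with a log2 fold change of −0.49 (95% interval −0.64 to −0.33, limma adjusted p = 0.00149). POSTN encodes periostin, a fasciclin-domain protein that binds both fibronectin and tenascin-C. It had 0 reads in each of the 6 libraries, which allows a level of up to 0.0319 to 0.0331 FPKM per library, taking 3 reads as the limit that a count of 0 allows. These limits cover counting error only.

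**Figure D2:**
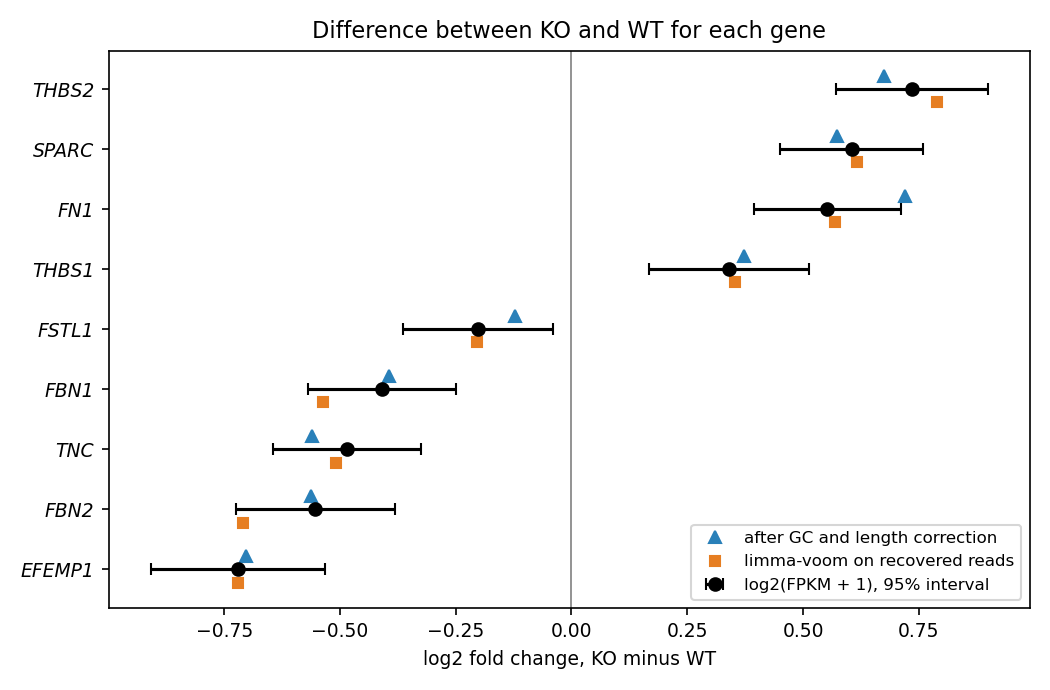
Log2 fold change of KO minus WT (horizontal axis) for the 9 detected genes, as circles with 95% intervals from limma on log2(FPKM + 1), triangles after correction for GC content and length, and squares from limma-voom on recovered reads. The 4 genes above 0 and the 5 genes below 0 keep their side in all 3 calculations, from 0.74 for THBS2 to −0.72 for EFEMP1 on the log2(FPKM + 1) scale.

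In KO cells the order of mean levels was SPARC, FN1, THBS1, EFEMP1, THBS2, FSTL1, TNC, FBN2 and FBN1. Library ranges of neighbours overlapped there between FN1 and THBS1, between THBS1 and EFEMP1, and between FBN2 and FBN1. In WT cells the order was SPARC, EFEMP1, THBS1, FN1, FSTL1, TNC, THBS2, FBN2 and FBN1, with overlap between THBS1 and FN1 and between FSTL1 and TNC. EFEMP1 thus stood in the fourth place in KO and in the second place in WT, and THBS2 in the fifth place in KO and in the seventh place in WT. As a share of the summed FPKM of the group, SPARC made up 50.1 ± 0.8% in KO and 39.4 ± 0.5% in WT (SD, n = 3 each). EFEMP1 made up 11.7 ± 0.5% in KO and 23.2 ± 1.7% in WT. FN1 made up 14.6 ± 0.9% in KO and 11.8 ± 0.8% in WT. The summed level was 555.8 ± 22.7 FPKM in KO and 463.2 ± 3.1 FPKM in WT, and the genes held 0.412% to 0.421% of reads in KO libraries and 0.331% to 0.346% in WT libraries.

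**Figure D3:**
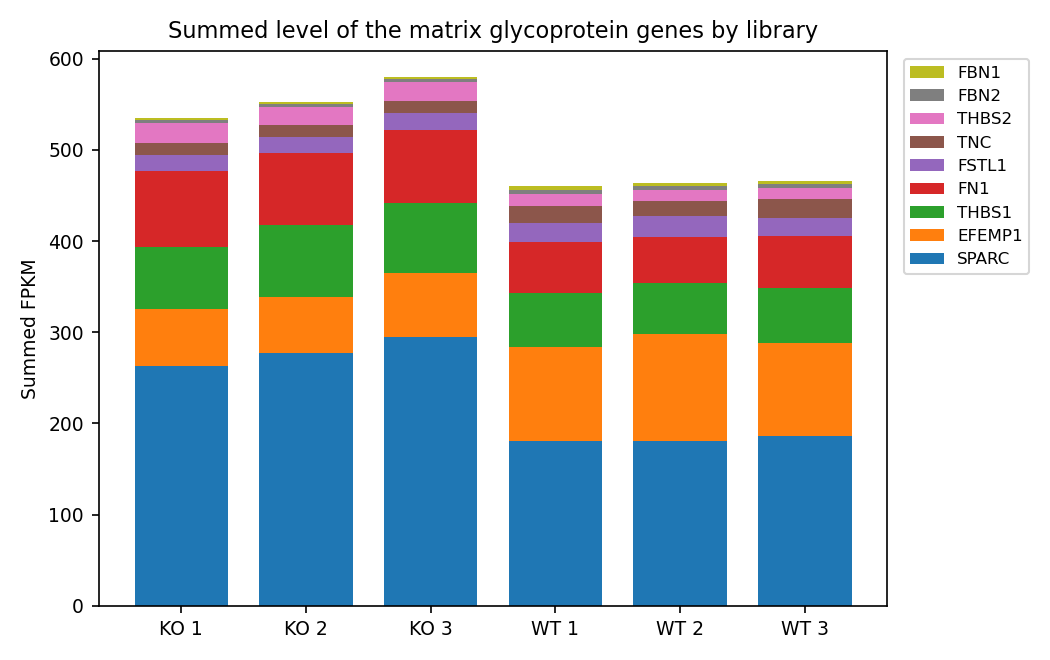
Summed FPKM (vertical axis, starting at 0) of the 9 detected genes in each KO and WT library, stacked by gene. The bars reach 534.9 to 579.9 FPKM in KO and 459.9 to 466.1 FPKM in WT libraries, with a larger SPARC segment and a smaller EFEMP1 segment in KO.

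The sizes of the changes ranked widely among the genes called. THBS2 had a larger absolute log2 fold change than 82.8% of the 5207 called genes, EFEMP1 than 81.8% and SPARC than 72.5%. The share was 66.7% for FBN2, 66.6% for FN1, 57.6% for TNC, 43.6% for FBN1, 29.3% for THBS1 and 2.1% for FSTL1. These ranks use changes of log2(FPKM + 1), which understate those of low genes such as FBN1 and FBN2. Limma-voom on recovered reads gave −0.71 for FBN2 and −0.54 for FBN1, beside −0.72 for EFEMP1. The genes sit at separate places in the genome. Other tested genes starting within 5 Mb had median log2 fold changes of −0.27 beside FBN2, −0.26 beside EFEMP1 and −0.21 beside FBN1. The medians were −0.12 beside TNC and −0.09 beside FSTL1. They were 0.06 beside SPARC, 0.07 beside FN1, −0.04 beside THBS1 and −0.03 beside THBS2. Exons of 5 of the 10 genes overlapped another annotated gene, over at most 7.89% of their exonic bases and with partners at no more than 0.356 FPKM.

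**Figure D4:**
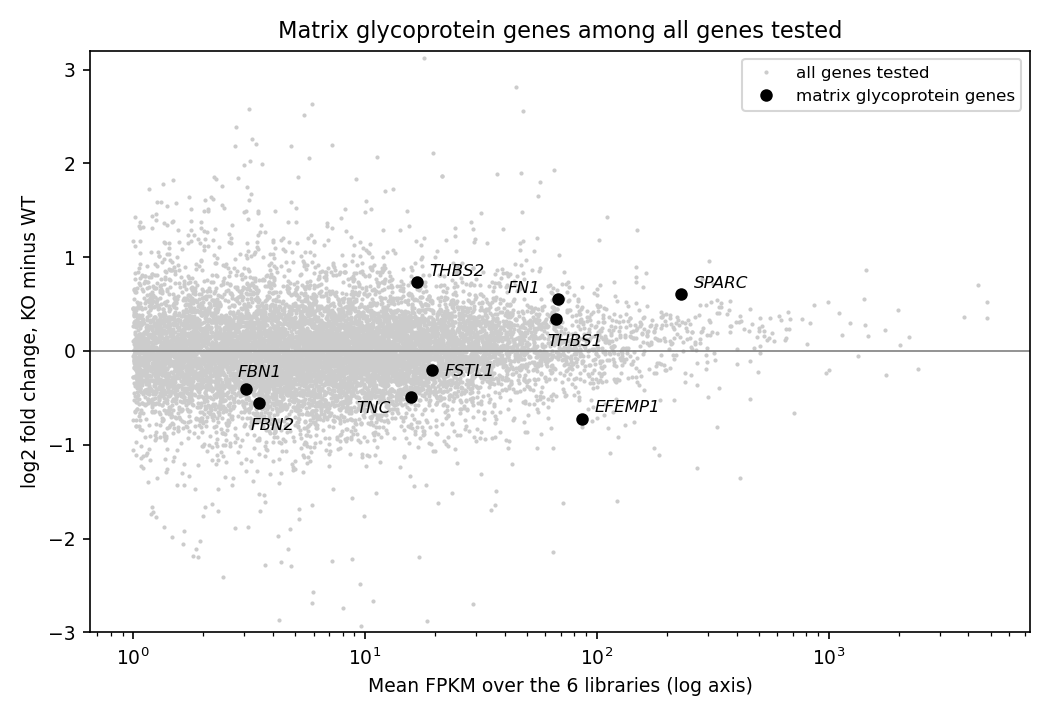
Log2 fold change of KO minus WT (vertical axis) against mean FPKM over the 6 libraries (horizontal log axis) for all genes tested in grey and the 9 detected matrix glycoprotein genes in black, with 8 genes beyond the vertical range. The 9 genes lie at the edges or inside the cloud of genes of like level, between −0.72 and 0.74.

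By the root mean square difference of log2(FPKM + 1) deviations over the 6 libraries, the protein-coding genes nearest to THBS2 were TBC1D8 (0.0304), ABHD15 (0.0346) and EPHB1 (0.0401). Those nearest to EFEMP1 were B2M (0.0182), RAB11FIP2 (0.0317) and TRIML2 (0.0321). B2M, the light chain of MHC class I, was at 75.6 ± 4.3 FPKM in KO and 125.0 ± 9.4 FPKM in WT (SD, n = 3 each). The measure describes libraries that share depth and GC trend. Once GC content and length were corrected for, the log2 fold change of −0.71 for RAB11FIP2 became −0.38. That of −0.72 for B2M became −0.51, and that of −0.76 for TRIML2 became −0.83, against −0.70 for EFEMP1. The corrected values were 0.68 for TBC1D8, 0.585 for ABHD15 and 0.67 for EPHB1, against 0.67 for THBS2. ABHD15 shares 431 exonic bases with TP53I13 on the opposite strand. How the counting treated strand is not given in the sources used here, so the value of ABHD15 is uncertain.

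Upstream sequences from RefSeq (GRCh38.p14) were available for 9 of the 10 genes, EFEMP1 not among them. The stretches shown are those of a gene that rose (THBS1), of a pair that fell (FBN1 and TNC) and of the gene without reads (POSTN). Each runs 5′ to 3′ on the gene's strand, ends at or before the RefSeq transcription start and lies outside all exons of GENCODE release 29. Capitals mark GGAATG, the TEAD motif, TGANTCA, the AP-1 motif, and TATAAA, the TATA box, on either strand.
THBS1, chr15:39580829-39581078, plus strand: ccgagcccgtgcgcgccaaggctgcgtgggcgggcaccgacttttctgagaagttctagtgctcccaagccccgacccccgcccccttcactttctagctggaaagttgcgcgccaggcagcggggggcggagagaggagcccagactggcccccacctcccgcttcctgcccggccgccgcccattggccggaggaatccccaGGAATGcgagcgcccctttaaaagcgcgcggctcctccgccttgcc
FBN1, chr15:48644971-48645220, minus strand: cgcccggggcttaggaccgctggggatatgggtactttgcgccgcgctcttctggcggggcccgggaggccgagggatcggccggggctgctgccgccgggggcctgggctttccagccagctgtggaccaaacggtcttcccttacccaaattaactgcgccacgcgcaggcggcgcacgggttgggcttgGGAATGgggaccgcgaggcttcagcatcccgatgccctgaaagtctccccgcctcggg
TNC, chr9:115118258-115118407, minus strand: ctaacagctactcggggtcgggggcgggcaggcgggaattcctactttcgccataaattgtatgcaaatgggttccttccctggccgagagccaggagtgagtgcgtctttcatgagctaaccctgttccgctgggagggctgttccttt
POSTN, chr13:37598845-37599018, minus strand: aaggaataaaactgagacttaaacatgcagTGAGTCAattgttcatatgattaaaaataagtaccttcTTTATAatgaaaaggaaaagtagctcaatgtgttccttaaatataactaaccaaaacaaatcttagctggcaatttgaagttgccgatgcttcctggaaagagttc

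In the 250 bases before the RefSeq start, GGAATG or its complement was found for SPARC, THBS1 and THBS2, which rose, and for FBN1, which fell. These letters occur in 11.9% of the 35116 windows of the same length. TATAAA was found for THBS2 and POSTN, in each from 29 to 24 bases before the start, and for POSTN once more, against 10.7% of all windows. GGGCGG, the Sp1 GC box, was found for THBS1, TNC, FN1, FBN2 and FSTL1 (42.6% of windows), with overlapping copies in FN1, and CCAAT for THBS1, FN1 and FBN2 (32.0%). GTCTAGAC, a SMAD motif, was found for none of the 9 (0.182%). FN1 alone among the 9 held TGACGTCA, the cyclic AMP response element, found in 1.65% of windows, and POSTN alone held TGANTCA, found in 6.57%. A match describes the letters only and is not evidence of a bound factor.

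Other matricellular genes were mostly at low levels or silent. Of 23 listed, 7 passed the level filter, of which 2 rose, 4 fell and 1 was not called, with a median log2 fold change of −0.76 against −0.01 over all genes tested. Over all genes tested 21.0% were called higher and 22.4% lower. TGFBI, a TGF-beta-induced periostin homologue, rose to 22.6 ± 1.1 FPKM in KO, against 8.38 ± 0.61 FPKM in WT (SD, n = 3 each; limma adjusted p = 2.98e-05). The CCN family genes CYR61 and NOV fell, CYR61 to 97.2 ± 0.6 FPKM in KO against 168.3 ± 4.9 FPKM in WT, and NOV to 3.77 ± 0.47 FPKM in KO against 7.58 ± 0.36 FPKM in WT. SPP1, which encodes the integrin ligand osteopontin, fell to 2.03 ± 0.31 FPKM in KO, against 4.84 ± 0.51 FPKM in WT (limma adjusted p = 0.000507). COMP, the cartilage thrombospondin, had 0 reads in all libraries.

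Among the other genes of microfibrils, elastic fibres and basement membranes, 8 of 20 passed the filter, of which 3 rose, 1 fell and 4 were not called, with a median of 0.05. Beside this, 21.0% were called higher and 22.4% lower over all genes tested. LTBP3 and LTBP4, which tether latent TGF-beta to fibrillin microfibrils, rose to 21.4 ± 0.7 and 13.7 ± 0.8 FPKM in KO, against 12.7 ± 0.9 and 8.29 ± 0.96 FPKM in WT (SD, n = 3 each). Their log2 fold changes of 0.71 and 0.66 became 0.51 and 0.46 once GC content and length were corrected for. LTBP1 and LTBP2 were not called, at 17.3 ± 0.3 and 15.4 ± 0.8 FPKM in KO and 16.3 ± 0.6 and 16.0 ± 2.2 FPKM in WT. EFEMP2, the close paralogue of EFEMP1 that encodes fibulin-4, fell to 2.11 ± 0.24 FPKM in KO, against 5.39 ± 0.58 FPKM in WT (limma adjusted p = 0.000268). FBLN1 rose to 1.89 ± 0.08 FPKM in KO, against 0.645 ± 0.052 FPKM in WT. It passed the level filter only through the KO libraries, where it is higher. Its log2 fold change was 0.81 with the pseudocount of 1 and 1.42 with one of 0.1. Elastin, encoded by ELN, had 11 reads over the KO and 3 over the WT libraries.

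Of 21 receptor genes listed for these proteins, 15 were tested, of which 3 rose, 8 fell and 4 were not called (median −0.22), beside 21.0% called higher and 22.4% called lower over all genes tested. ITGB3, the beta-3 integrin that pairs with alpha-v as a receptor for several of these ligands, was at 0.349 ± 0.027 FPKM in KO and 1.92 ± 0.22 FPKM in WT (SD, n = 3 each). It fell, with a log2 fold change of −1.11 with a pseudocount of 1 and −2.17 with one of 0.1 (limma adjusted p = 0.000229 and 0.000385). ITGB3 passed the level filter only through the WT libraries, so its selection for testing depended on the genotype where it is higher. Exons of ITGB3 overlap a gene on the same strand over 51.6% of their bases, and that gene is listed at 0. ITGA4 fell to 1.19 ± 0.14 FPKM in KO, against 2.69 ± 0.32 FPKM in WT, and SDC4, a fibronectin-binding syndecan, to 39.9 ± 0.9 FPKM in KO, against 58.2 ± 1.5 FPKM in WT. LRP1, which takes up thrombospondins and proteases, rose to 12.5 ± 0.6 FPKM in KO, against 6.53 ± 0.71 FPKM in WT (limma adjusted p = 0.00035). The partners of the fibronectin receptor, ITGA5 and ITGB1, were at 71.1 ± 3.0 and 137.1 ± 5.8 FPKM in KO, against 88.3 ± 9.8 and 183.0 ± 15.7 FPKM in WT. Both were called lower. Once GC content and length were corrected for, the log2 fold change of −0.41 for ITGB1 became −0.18, that of −0.56 for ITGAV became −0.26 and that of −0.48 for CD47 became −0.19, and all 3 were still called lower.

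Of the enzymes that process, modify or cleave these proteins, 11 of 17 passed the filter, of which 5 rose, 1 fell and 5 were not called (median 0.27). The shares over all genes tested were 21.0% called higher and 22.4% called lower. PLAU, the urokinase gene, rose to 402.1 ± 17.7 FPKM in KO, against 206.7 ± 10.9 FPKM in WT (SD, n = 3 each; limma adjusted p = 0.000122). MMP2, a gelatinase, rose to 38.2 ± 1.9 FPKM in KO, against 22.1 ± 1.8 FPKM in WT. BMP1, a procollagen proteinase, rose to 13.6 ± 0.3 FPKM in KO, against 8.57 ± 0.62 FPKM in WT. THSD4, which encodes an ADAMTS-like protein that promotes fibrillin-1 assembly, rose to 5.12 ± 0.13 FPKM in KO, against 2.97 ± 0.04 FPKM in WT. FURIN, the protease that trims profibrillin, was at 55.3 ± 1.3 FPKM in KO and 54.0 ± 7.6 FPKM in WT and was not called.

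TGF-beta is a known inducer of several matrix glycoproteins, and its ligands, receptors, SMAD proteins and response genes were examined. Of these 12 genes, 4 rose, 2 fell and 6 were not called (median 0.01), beside 21.0% called higher and 22.4% called lower over all genes tested. The increase of TGFB1, the most abundant ligand gene, was a log2 fold change of 0.24 and became 0.02 once GC content and length were corrected for (limma adjusted p = 0.868). The decrease of the receptor gene TGFBR1 was a log2 fold change of −0.36 and became −0.09 under the same correction (limma adjusted p = 0.376). PMEPA1 rose most, to 82.3 ± 1.8 FPKM in KO, against 13.2 ± 0.4 FPKM in WT (SD, n = 3 each; limma adjusted p = 7.22e-07). SMAD7, on the same list, was at 5.73 ± 0.51 FPKM in KO and 5.85 ± 0.77 FPKM in WT and was not called. The ligand gene TGFB2 rose to 3.31 ± 0.28 FPKM in KO, against 1.57 ± 0.18 FPKM in WT, and SMAD3 to 25.9 ± 0.7 FPKM in KO, against 20.3 ± 1.7 FPKM in WT. Exons of TGFB2 overlap a gene on the same strand over 26.6% of their bases, and that gene is listed at 0.

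**Figure D5:**
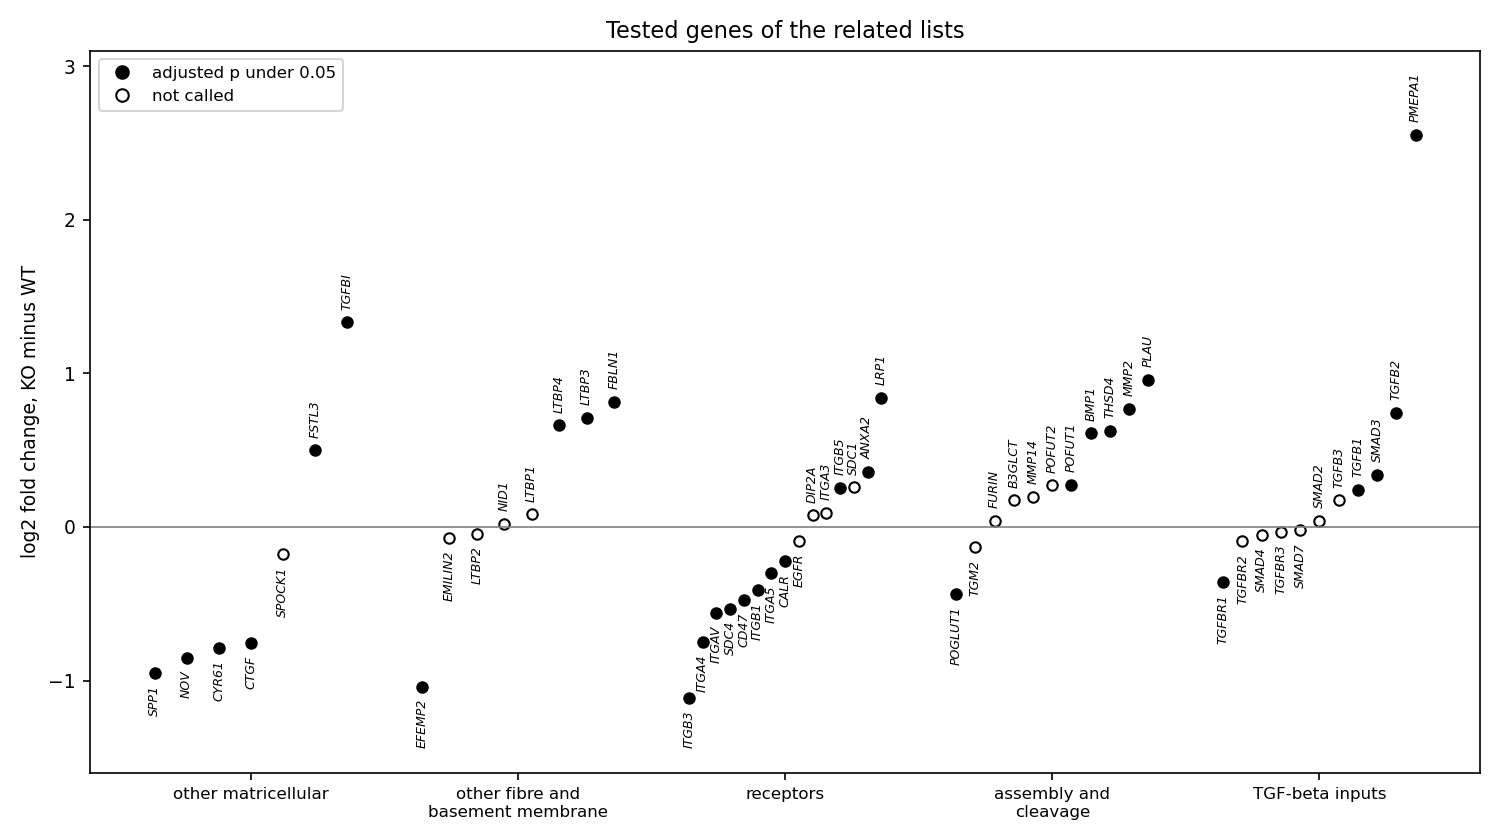
Log2 fold change of KO minus WT (vertical axis) for the tested genes of 5 related lists except 1 gene, filled where limma's adjusted p is under 0.05 and open where it is not. Filled points lie on both sides of 0 in each list, with PMEPA1 at 2.55 the highest and ITGB3 at −1.11 the lowest.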

How the data were processed

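Messenger RNA libraries of HT1080 cells, 3 GPR56 KO and 3 WT, were compared. The authors deposited FPKM values for 58735 genes. Gene positions and lengths of 58735 genes equal those of GENCODE release 29 on GRCh38, although GRCm38 and mm10, which are mouse builds, stand in the submitters' processing notes. Aligner, counter and strand setting: not given in the sources used here. FPKM times length stepped in whole reads for 100.0% of values above 0 (tolerance 0.02 read), which gave the totals per library. No libraries of 1 genotype agreed within sampling noise (chi-square over its degrees of freedom, 4.92 to 16.5).

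Values were tested with limma (version 3.58.1, R 4.3.3; trend) on log2(FPKM + 1) for genes with a mean of at least 1 FPKM, two-sided, with genotype as the only term, and adjusted by Benjamini and Hochberg over all 12000 genes. The test was checked on simulated data. Fold changes are KO minus WT and understate changes of low genes. The GC and length correction removed natural splines (5 degrees of freedom each) of GC and log2 length from each library's deviations. Named genes were all 10 members, ADGRG1, up to 4 called genes of each list with the smallest adjusted p, and the 3 genes nearest to the members with the largest increase and decrease on the log2(FPKM + 1) scale. ITGA5, ITGB1, ITGAV, CD47, FURIN, COMP, ELN, LTBP1, LTBP2, TGFB1, TGFBR1, SMAD7 and the markers were named in addition, after their values were seen. Members, lists and sequence motifs were chosen with earlier results of these data known. The result of 1 named gene is not reported here.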

Additional observations from a re-analysis of the deposited data

How the results depend on the processing

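Over 14 alternatives, FN1, SPARC, THBS1, THBS2, FBN1, FBN2, EFEMP1 and TNC kept their direction and their call wherever they were tested, and FSTL1 kept its direction and lost its call in 10. With the filter at a mean of 5 FPKM, FBN1 and FBN2 were not tested, so the members called lower numbered 3, against 5 as reported, and the calls over all genes numbered 1639 higher and 1564 lower. Members called higher numbered 4 under every alternative, and members called lower 4 or 5 without any 1 library. Limma-voom on recovered reads, chosen after seeing the data, called 2764 genes higher and 2800 lower. The planned count-model tests were not run, and limma-voom on recovered reads took their place. The log2 difference of the THBS2 to THBS1 ratio was 0.33 to 0.51 without any 1 library, and that of FBN2 to FBN1 −0.23 to −0.12.

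Replicate numbers did not pair the samples: deviations of same-numbered KO and WT libraries correlated at −0.07, −0.18 and −0.35. With the replicate number as a block, 1900 genes were called higher and 1966 lower, 4 members were higher and 4 lower, and FSTL1 had a limma adjusted p of 0.116. The exact sign-flip tests of the ratios over these pairs gave p = 0.25 for the thrombospondins (0.44) and 0.5 for the fibrillins (−0.17). A KO of unknown clone number limits every comparison to these cell populations.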

Other observations

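Several matricellular, fibre and basement membrane genes lay under the level filter and were not tested, yet were read in every library. Chosen after their values were seen, as genes of these lists under the filter with at least 100 reads over a genotype, these were THBS3, FBLN2, NID2 and EMILIN1. THBS3, a pentameric thrombospondin, was at 1.18 ± 0.15 FPKM in KO and 0.590 ± 0.089 FPKM in WT (SD, n = 3 each), from 277 and 137 reads. FBLN2, a fibulin of basement membranes and elastic fibres, was at 1.57 ± 0.10 FPKM in KO and 0.413 ± 0.139 FPKM in WT, from 385 and 100 reads. NID2, a nidogen, was at 0.469 ± 0.077 FPKM in KO and 0.881 ± 0.202 FPKM in WT, from 153 and 283 reads. The library ranges of THBS3, FBLN2 and NID2 did not overlap between KO and WT, whereas those of EMILIN1 did, at 0.504 ± 0.194 FPKM in KO and 0.544 ± 0.122 FPKM in WT. Ranges did not overlap for 54.7% of all genes tested, and the share over genes under the filter was not calculated.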
